A study of Homo sapiens with 6 samples.

Results

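Decorin (*DCN*) and its relatives among the small leucine-rich proteoglycans (SLRPs) were followed in cultured lung fibroblasts. The family was taken as 10 genes by symbol, namely *DCN*, *LUM*, *BGN*, *FMOD*, *OGN*, *PRELP*, *ASPN*, *OMD*, *PODN* and *ECM2*. All 10 were found among the 58676 gene identifiers of the count table, and 9 of them had at least 10 counts summed over the 6 libraries and were among the 19072 genes tested. The family was chosen by the change of *DCN* in this same comparison, so values for *DCN* are given as a description and without a p value. The other members entered by family membership and not by their own values, but results of these data were known when the family was listed.

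SLRPs are secreted proteins built around a core of leucine-rich repeats, and most carry chondroitin, dermatan or keratan sulfate chains. In connective tissue, including lung, they sit on collagen fibrils and affect fibril width and spacing. Decorin and biglycan, the protein of *BGN*, also bind growth factors such as TGF-β and several cell surface receptors. Fibroblasts are a main source of decorin and lumican, the protein of *LUM*.

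RNA-Seq was performed on MRC5 cells, a human lung fibroblast line, kept for 24 h in conditioned media (CM) from ATIIER:KRASV12 cells, a line of alveolar type II epithelium in which 4-hydroxytamoxifen (4-OHT) turns on RAS. The CM came from control cells for 3 libraries (control ATII CM) and from cells given 4-OHT for 24 h for another 3 (4-OHT ATII CM). Each group thus shares a single fibroblast line and a single epithelial line, no fibroblasts in plain medium were among the libraries, and whether 4-OHT was removed before the CM was collected is not given in the sources used here. The comparison asks how fibroblast transcripts differ between the 2 media. The labels do not say whether the libraries of a group came from separate cultures, so p values measure the spread between these libraries, which may be technical.

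Library totals ranged from 17691849 to 22749248 counts under control ATII CM and from 21798614 to 26389449 in 4-OHT ATII CM. Across all genes, 1090 of 19072 (5.72%) passed an adjusted p of 0.05, with 563 (2.95%) higher and 527 (2.76%) lower in 4-OHT ATII CM. The median log2 fold change over all genes tested was -0.0020. The first principal component, with 32.2% of the variance, separated the groups, and the second, with 22.5%, set control replicate 2 apart. Fibroblast markers were abundant, with 9 of 9 measured and a summed level of 36739 to 40238 CPM (reads of a gene relative to the size of its library) in control libraries and 37638 to 39084 CPM in 4-OHT libraries. Of these 9, *COL3A1* and *PDGFRA* were called higher and *VIM* lower, and most of the sum is collagen. Of 12 epithelial markers, *CDH1*, *SFTPC*, *SFTPB*, *KRT5*, *SFTPA1* and *ESRP1* had 0 to 4 counts over all libraries, while *KRT18*, *KRT8* and *KRT19* stood at 53.5, 32.5 and 7.73 CPM and *KRT7*, *CLDN4* and *EPCAM* at 1.65, 0.627 and 0.378 CPM in control libraries. None of the 6 measured was called, and their summed level was 93.0 to 98.9 CPM in control libraries and 90.6 to 96.3 CPM in 4-OHT libraries.

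The genes fell into neighborhoods on GRCh38, at the positions of the deposited table. *LUM* (ENSG00000139329, chromosome 12, 91102629 to 91111831) and *DCN* (ENSG00000011465, chromosome 12, 91140484 to 91183123) lay 28.7 kb apart on the minus strand, next to the family genes *KERA* and *EPYC*. *OGN* (ENSG00000106809, 92383967 to 92404696), *OMD* (ENSG00000127083, 92414245 to 92424461), *ASPN* (ENSG00000106819, 92456205 to 92482506) and *ECM2* (ENSG00000106823, 92493554 to 92536655) formed a run on the minus strand of chromosome 9 with gaps of 9548, 31743 and 11047 bases. On chromosome 1, *FMOD* (ENSG00000122176, 203340628 to 203351758, minus strand) and *PRELP* (ENSG00000188783, 203475828 to 203491352, plus strand) lay 124.1 kb apart, with *OPTC* 2.8 kb beyond *PRELP*. *PODN* (ENSG00000174348, chromosome 1, 53062052 to 53085502, plus strand) and *BGN* (ENSG00000182492, chromosome X, 153494939 to 153509554, plus strand) stood alone. Among the members, exons of other genes overlapped those of *PODN* alone, and the overlapping genes *HIGD1AP11* and ENSG00000232993 had 0 counts.

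Upstream sequences were read from RefSeq (GRCh38.p14), which matched 7 of the 10 members in the table used here. *DCN*, *LUM* and *OMD* were not matched. The stretches printed here were picked because their genes sat at different levels, namely abundant *BGN*, *PODN* of middle level and *ASPN* near the limit of measurement. Each is the part of the 250 bases before the RefSeq start that lies outside the exons of the deposited table, 5′ to 3′ on the gene's strand, with matches to the GC box GGGCGG, on either strand, in capitals.
BGN, chrX:153494730-153494938, plus strand: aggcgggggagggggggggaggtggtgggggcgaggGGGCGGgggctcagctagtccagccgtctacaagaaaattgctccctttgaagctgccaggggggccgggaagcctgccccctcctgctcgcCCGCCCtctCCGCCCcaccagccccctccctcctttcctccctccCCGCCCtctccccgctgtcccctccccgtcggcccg
PODN, chr1:53061963-53062051, plus strand: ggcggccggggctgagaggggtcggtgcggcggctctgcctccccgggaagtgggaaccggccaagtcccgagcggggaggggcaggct
ASPN, chr9:92482507-92482756, minus strand: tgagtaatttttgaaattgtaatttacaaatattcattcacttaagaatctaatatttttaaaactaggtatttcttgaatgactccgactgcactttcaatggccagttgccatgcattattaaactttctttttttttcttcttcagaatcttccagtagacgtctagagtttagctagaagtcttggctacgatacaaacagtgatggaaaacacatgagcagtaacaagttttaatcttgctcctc
The 250 bases upstream of *BGN* had a GC content of 74.0% and those of *PODN* of 72.4%, against a median of 58.0% over 35116 promoters, while the figure for *ASPN* was 32.4%. The window of *FMOD* had 51.6%, that of *PRELP* 52.8%, that of *ECM2* 36.0% and the 2 windows of *OGN* 36.0 and 31.2%. Each motif was searched on both strands. The GC box matched 5 times upstream of *BGN*, 4 of them in the printed stretch, and 2 times upstream of *PODN*, both inside an exon and so not printed. It also matched 2 times upstream of *FMOD*, whose window begins inside an exon of the deposited table, and in no window of the remaining members. It occurred in 42.6% of all promoters of this length. The TATA box, TATAAA, found in 10.7% of promoters, matched upstream of *FMOD* and *OGN*, and the CCAAT box, found in 32.0%, matched upstream of *FMOD* and *PRELP*. The AP-1 site TGANTCA, where N is any base, was found in 6.57% and matched in none of the 7. The windows of *ASPN* and *ECM2* had no match to any of the 4 motifs. Such matches describe the letters only.

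*DCN* was the most abundant member and was higher in 4-OHT ATII CM in every library. Its counts were 82639, 69336 and 87911 in control replicates 1 to 3 and 103698, 125040 and 127915 in the 4-OHT replicates. After TMM normalization these were 3872, 3882 and 3879 CPM against 4736, 5014 and 4867 CPM. The groups did not overlap. The control libraries lay closer together than the 4-OHT libraries, but 3 libraries measure a spread poorly, and the spreads were not tested. The means were 3878 ± 5.38 CPM (SD, n = 3) and 4872 ± 139 CPM (SD, n = 3), a difference of 25.7% (95% interval 21.2 to 30.2%) or 0.33 on the log2 scale (standard error 0.0242). Since *DCN* was selected by this change, the interval is a description and not a test. *DCN* alone took 0.386 to 0.392% of all counts in control libraries and 0.476 to 0.497% in 4-OHT libraries. In bulk libraries, fewer cells of a type and less RNA per cell cannot be told apart, here and for every value that follows.

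**Figure D1:**
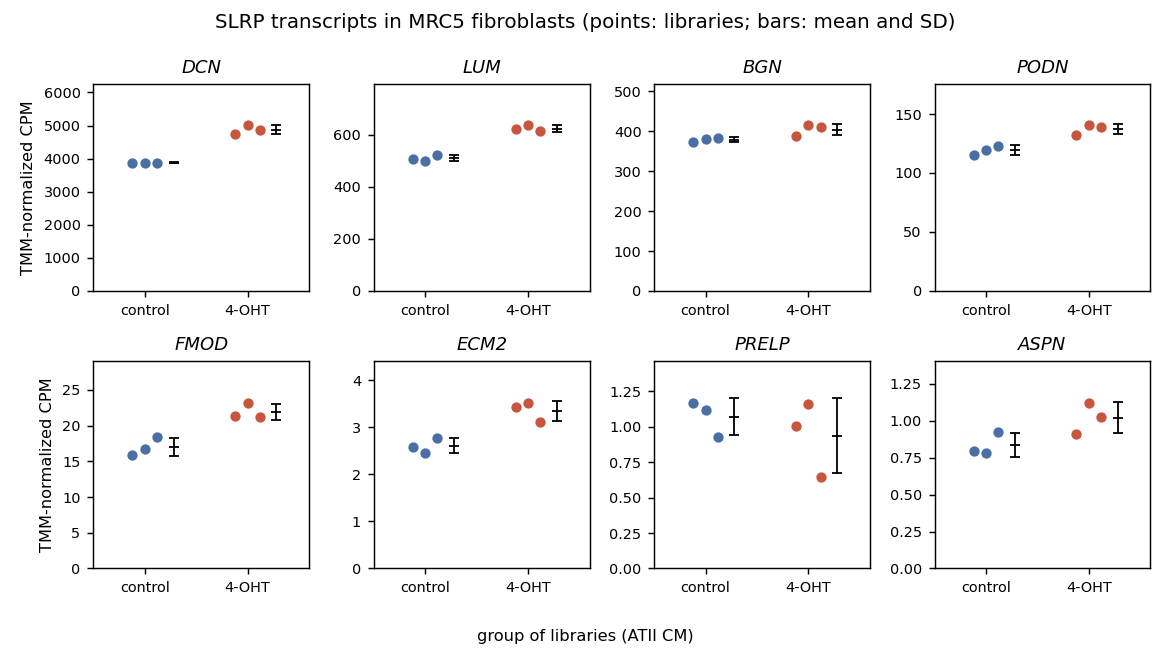
TMM-normalized CPM (vertical axes, linear from 0, one scale per gene) of 8 SLRP genes in the 3 control ATII CM and 3 4-OHT ATII CM libraries; points are libraries and black bars the mean and SD. The groups stand apart for *DCN*, *LUM*, *BGN*, *PODN*, *FMOD* and *ECM2* and overlap for *PRELP* and *ASPN*.

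Beside *DCN*, 3 of the 8 other measured members were called higher in 4-OHT ATII CM and none lower, with 2.95% of all genes called higher. The 3 were *LUM*, *FMOD* and *PODN*, and without 4-OHT replicate 2 the count was 1, *LUM*. The median log2 fold change of the 7 members beside *DCN* and *OGN*, which was too scarce for a fold change, was 0.29. For the 6 of these members with a mean of at least 1 CPM the median was 0.246. In 5 of the 8 every 4-OHT library was above every control library, which held for 11.7% of all genes, while the opposite order held for 10.4% of all genes and for none of the members. Since the family was selected on this comparison, nothing further is read from these counts.

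*LUM*, which encodes a keratan sulfate proteoglycan that binds collagen fibrils, rose in 4-OHT ATII CM by an amount close to that of its neighbor *DCN*. It had 10831, 8922 and 11845 counts in the control libraries and 13590, 15894 and 16141 in the 4-OHT libraries, or 507, 499.6 and 523 CPM against 621, 637 and 614 CPM. The lowest 4-OHT library was above the highest control library. The means of 509.9 ± 11.7 and 624 ± 12.0 CPM (SD, n = 3 each) differed by 0.29 on the log2 scale (standard error 0.0306, 95% interval 0.226 to 0.356, edgeR adjusted p = 3.99e-05).

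*FMOD*, which encodes fibromodulin, another collagen-binding keratan sulfate proteoglycan, rose from a much lower level. The control libraries held 339, 298 and 416 counts and the 4-OHT libraries 466, 579 and 556. These were 15.9, 16.7 and 18.4 CPM against 21.3, 23.2 and 21.2 CPM. The groups did not overlap, and the difference was 0.36 on the log2 scale (standard error 0.0728, 95% interval 0.210 to 0.520, edgeR adjusted p = 0.00638). Without 4-OHT replicate 2 it missed the threshold, with a log2 fold change of 0.32 and an adjusted p of 0.0510.

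*PODN*, which encodes podocan, a family member with more repeats than decorin, also rose. Control libraries had 115, 120 and 123 CPM from 2458, 2139 and 2793 counts. The 4-OHT libraries had 132, 141 and 139 CPM from 2895, 3507 and 3645 counts. Every 4-OHT library was above every control library, by 0.20 on the log2 scale on average (standard error 0.0395, 95% interval 0.117 to 0.285, edgeR adjusted p = 0.00578). This difference too missed the threshold without 4-OHT replicate 2, with a log2 fold change of 0.18 and an adjusted p of 0.0508.

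*BGN*, the closest relative of *DCN* in the family and, like it, a carrier of chondroitin or dermatan sulfate chains, did not pass the test. It had 7960, 6792 and 8705 counts in the control libraries against 8494, 10368 and 10782 in the 4-OHT libraries, or 373, 380 and 384 CPM against 388, 416 and 410 CPM. The groups did not overlap, but the lowest 4-OHT library lay just above the highest control library. The log2 fold change was 0.09 (standard error 0.0337, 95% interval 0.0224 to 0.166, edgeR adjusted p = 0.136).

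The remaining members were scarce, and none passed the test. *ECM2*, which encodes a matrix protein with leucine-rich repeats, had 55, 44 and 63 counts in control libraries and 75, 88 and 82 in 4-OHT libraries. Its levels of 2.61 ± 0.160 and 3.36 ± 0.213 CPM (SD, n = 3 each) did not overlap, with a log2 fold change of 0.36 (standard error 0.155, edgeR adjusted p = 0.235). *ASPN*, which encodes asporin, had 17, 14 and 21 counts against 20, 28 and 27. The *ASPN* groups overlapped in CPM, and the 95% interval of the log2 fold change ran from -0.254 to 0.825. *PRELP*, which encodes a proline- and arginine-rich relative of fibromodulin, had 25, 20 and 21 counts against 22, 29 and 17, and its interval ran from -0.781 to 0.391. At this depth changes of the size seen for *DCN* could not be told from no change in *ASPN* or *PRELP*.

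*OGN* and *OMD*, which encode osteoglycin and osteomodulin, were at the limit of detection. *OGN* had 3, 0 and 1 counts in control libraries and 3, 3 and 1 in 4-OHT libraries, a sum of 11 that placed it just inside the minimum of 10. No fold change is given for it, since no library exceeded 3 counts. *OMD* had 0, 1 and 0 counts against 1, 0 and 0, a sum of 2, and was not measured.

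**Figure D2:**
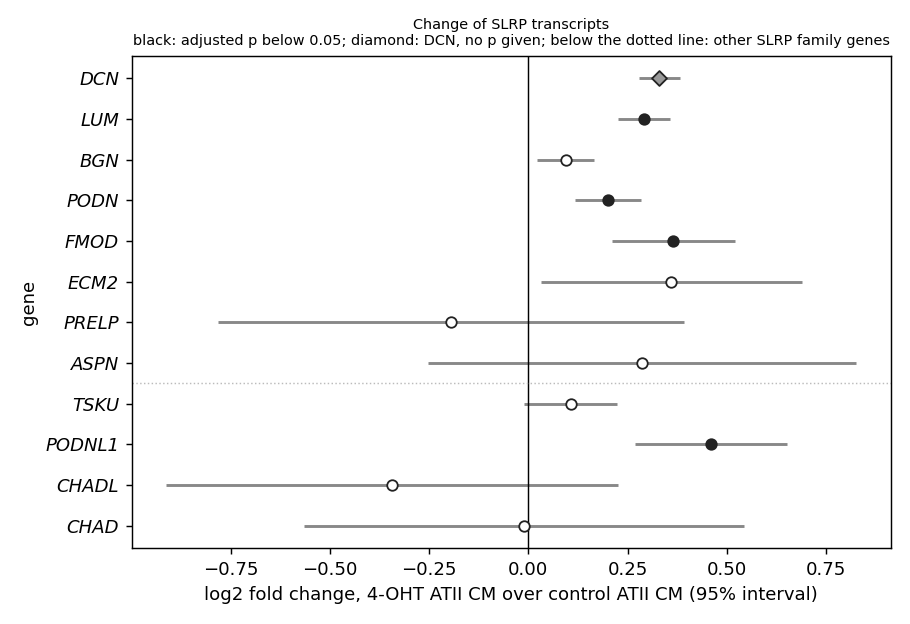
Log2 fold change of 4-OHT ATII CM over control ATII CM (horizontal axis) with 95% intervals for 8 SLRP genes above the dotted line and 4 other genes of the family below it. Black points passed an adjusted p of 0.05 in edgeR, open points did not, and the grey diamond is *DCN*, for which no p value is given; *BGN* lies at 0.09, nearer to 0 than *DCN*, *LUM*, *FMOD* and *PODN*.

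Levels of different genes were compared per kb of merged exons, the length given in the deposited table. *DCN* led with 302 ± 0.419 CPM per kb in control ATII CM, followed by *LUM* with 170 ± 3.91, *BGN* with 155 ± 2.32 and *PODN* with 24.4 ± 0.827 (SD, n = 3 each). *FMOD* came next with 4.99 ± 0.371 CPM per kb, and *ECM2*, *ASPN*, *PRELP* and *OGN* were at 0.530, 0.338, 0.187 and 0.0185. In 4-OHT ATII CM the order was the same, with 379 ± 10.8 CPM per kb for *DCN*, 207 ± 3.98 for *LUM*, 165 ± 5.998 for *BGN* and 28.0 ± 0.897 for *PODN*. Libraries of neighbors in this order did not overlap in either group. By mean CPM per kb over all libraries, *DCN* ranked 69, *LUM* 173 and *BGN* 214 of the 19072 genes tested, whereas *FMOD* ranked 5910. The merged exons of *DCN* cover 12847 bases while its canonical transcript has 6850, and with canonical lengths *DCN* stood at 566 CPM per kb in control ATII CM, *LUM* at 191 and *BGN* at 161, in the same order.

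The balance among the abundant members was read from ratios within each library. The ratio of *DCN* to *LUM* in CPM per kb was 1.79, 1.82 and 1.74 in control libraries and 1.79, 1.84 and 1.86 in 4-OHT libraries. The groups overlapped, with 1 control library above the lowest 4-OHT library. The ratio of *DCN* to *BGN* was 1.98, 1.95 and 1.93 in control libraries and 2.33, 2.30 and 2.27 in 4-OHT libraries, with no overlap. The ratio of *LUM* to *BGN* was 1.10 ± 0.0222 and 1.26 ± 0.0426 (SD, n = 3 each), also without overlap. Of the summed CPM per kb of the 9 measured members, *DCN* made up 46.0 ± 0.446% in the control libraries and 48.2 ± 0.127% in the 4-OHT libraries, and *BGN* 23.5 ± 0.191% and 20.9 ± 0.339%. With canonical transcript lengths the ratio of *DCN* to *BGN* was 3.51 ± 0.0490 and 4.14 ± 0.0594, that of *DCN* to *LUM* 2.97 ± 0.0686 and 3.04 ± 0.0608, and the share of *DCN* 58.7 and 60.7%, so the size of a ratio depends on the length used. These ratios are descriptions, without a test.

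**Figure D3:**
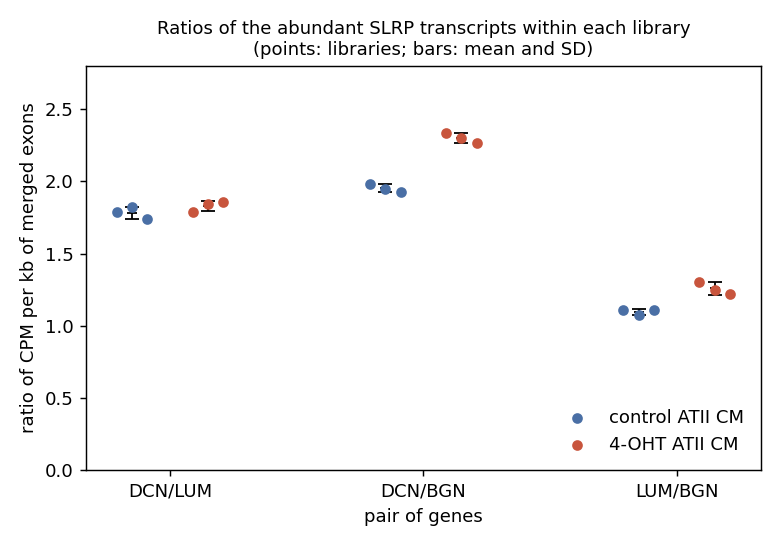
Ratios of CPM per kb of merged exons between pairs of SLRP genes within each library (vertical axis, from 0), with points for libraries and bars for the mean and SD. The groups overlap for DCN/LUM, while DCN/BGN lies at 1.93 to 1.98 in control libraries and at 2.27 to 2.33 in 4-OHT libraries.

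The abundant members did not share their level with all of their neighbors. On chromosome 12, *KERA* and *EPYC*, which encode the keratan sulfate proteoglycan keratocan and the cartilage proteoglycan epiphycan, had 0 and 7 counts over the 6 libraries while *LUM* had 77223 and *DCN* 596539. On chromosome 9, all genes of the run were scarce, from 2 counts for *OMD* to 407 for *ECM2*. On chromosome 1, *FMOD* had 2654 counts, *PRELP* 134 and *OPTC* 3.

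Outside the 10 members, 4 of 8 other genes of the family were measured and 1 was called, beside 5.72% of all genes. *PODNL1*, which encodes a podocan-like protein, rose from 7.36, 7.22 and 7.81 CPM in control libraries to 9.87, 10.3 and 10.6 CPM in 4-OHT libraries. The groups were well apart, with a log2 fold change of 0.46 (standard error 0.0898, edgeR adjusted p = 0.00550). Its exons share 190 bases with those of *DCAF15* on the other strand, and whether counting used strand is not stated. *TSKU*, which encodes the secreted protein tsukushi, had 29.4 ± 0.646 and 31.6 ± 1.70 CPM (SD, n = 3 each) with overlapping groups. *CHAD* and *CHADL*, which encode chondroadherin and a relative, had 0.852 and 1.11 CPM in control ATII CM and were not called. *NYX*, like *KERA*, had 0 counts.

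Genes that build the sulfated chains were called at 2 of 21 measured, beside 5.72% of all genes. Of these 21 genes for the linker and the chondroitin and dermatan sulfate chains, *CSGALNACT2*, which adds the first chondroitin sugar, rose from 71.8 ± 1.64 to 80.2 ± 0.707 CPM (log2 fold change 0.16, edgeR adjusted p = 0.0181). *XYLT1*, which starts the linker on the core protein, fell from 26.2 ± 0.602 to 21.8 ± 1.04 CPM (log2 fold change -0.26, edgeR adjusted p = 0.0157). The other 19 were not called, among them *CHPF*, the most abundant per length, and the list had a median log2 fold change of 0.04. *CSGALNACT2* lost its call without control replicate 1 or 3 or without 4-OHT replicate 2 or 3. *XYLT1* lost its call without control replicate 1, without 4-OHT replicate 2, and when all libraries were thinned to the smallest.

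For keratan sulfate chains, which lumican and fibromodulin carry, 1 of 8 measured genes rose and none fell, beside 2.95% of all genes called higher and 2.76% lower. *B4GALT4*, a galactosyltransferase, had 52.5, 49.8 and 51.4 CPM in control libraries and 58.7, 61.4 and 63.5 CPM in 4-OHT libraries, without overlap (log2 fold change 0.26, edgeR adjusted p = 0.00174). *B4GALT1*, the most abundant of the list per kb of merged exons, was not called, and the list's median was 0.08. By mean per kb of canonical transcript, *B4GALT1* was first in the control libraries and *B4GALT4* in the 4-OHT libraries. Of 9 genes that supply sulfate donors and sugar nucleotides, 1 was called, beside 5.72% of all genes. This gene, *SLC35D1*, which carries UDP-sugars into the endoplasmic reticulum, rose from 88.8 ± 1.09 to 112 ± 4.78 CPM (log2 fold change 0.33, edgeR adjusted p = 0.000141). *PAPSS2*, which makes the sulfate donor and led this list per kb of merged exons, was not called. By mean per kb of canonical transcript, *SLC35B2* of the same list was first in the control libraries and *PAPSS2* in the 4-OHT libraries. The supply list's median was 0.04, and *B4GALT4* and *SLC35D1* kept their calls in all 14 alternatives.

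Among 9 measured genes for proteases known to process or degrade SLRPs and for the enhancers of such a protease (*PCOLCE* and *PCOLCE2*), 2 rose and none fell, beside 2.95% of all genes called higher and 2.76% lower. The median log2 fold change was 0.14, and 0.08 for the 6 with a mean of at least 1 CPM. *MMP2*, a gelatinase and the most abundant of the list, rose from 1413 ± 24.6 to 1552 ± 6.53 CPM (log2 fold change 0.14, edgeR adjusted p = 0.00454). *ADAMTS5*, a proteoglycan-cleaving enzyme, rose from 98.4 ± 9.69 to 119 ± 5.79 CPM (log2 fold change 0.28, edgeR adjusted p = 0.00883). Each lost its call without 1 library, *MMP2* without 4-OHT replicate 3 (adjusted p = 0.0501) and *ADAMTS5* without 4-OHT replicate 2 (adjusted p = 0.0691).

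Of 16 measured receptors and growth factor partners of SLRPs, 3 rose and 2 fell, beside 2.95% and 2.76% of all genes, and the number that fell was 0 to 4 with 1 library left out. The median was -0.02, and 0.02 for the 15 with a mean of at least 1 CPM. *BMP4*, a growth factor that biglycan binds, rose from 279 ± 8.77 to 351 ± 11.8 CPM (log2 fold change 0.34, edgeR adjusted p = 4.60e-05). *BMP2* rose from 29.2 ± 0.198 to 37.1 ± 0.951 CPM (log2 fold change 0.35, edgeR adjusted p = 0.000428), and *CCN4*, a matricellular protein, from 135 ± 5.91 to 153 ± 2.73 CPM (edgeR adjusted p = 0.0132). *EGFR* and *MET*, receptor tyrosine kinases that bind decorin, fell from 159 ± 17.3 to 132 ± 4.76 CPM and from 41.6 ± 0.856 to 36.3 ± 1.66 CPM (edgeR adjusted p = 0.0148 and 0.0238). *CCN2* and *CD44*, the most abundant per kb of merged exons and per kb of canonical transcript, were not called. *EGFR* and *MET* each lost the call without control replicate 1, control replicate 3 or 4-OHT replicate 2, *MET* also without 4-OHT replicate 3, and *CCN4* without control replicate 3 or 4-OHT replicate 2. Further, 4 genes of the list were called lower without control replicate 2, the library that the second component set apart.

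Of 10 measured collagens that SLRPs bind, 2 rose and 1 fell, beside 2.95% and 2.76% of all genes, with a median of -0.02. *COL3A1*, the type III collagen chain, rose from 4847 ± 143 to 5493 ± 113 CPM (log2 fold change 0.18, edgeR adjusted p = 0.000463), and *COL14A1*, a fibril-associated collagen, from 124 ± 16.1 to 158 ± 7.63 CPM (log2 fold change 0.35, edgeR adjusted p = 0.00572). *COL6A3* fell by 0.28 on the log2 scale (edgeR adjusted p = 0.0460), but control replicate 2 at 4187 CPM lay among the 4-OHT libraries at 4155, 4395 and 4259 CPM, whereas the other control libraries had 5717 and 5627 CPM. *COL1A1*, the most abundant collagen of the list, was not called. *COL6A3* kept its call with 1 library left out only where that library was control replicate 2, in which case 5 collagens were called lower, and DESeq2 called none lower. *COL14A1* missed the threshold without 4-OHT replicate 2 (adjusted p = 0.0519).

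TGF-β is a growth factor that decorin binds, and its response genes went both ways. Of 16 such genes, 3 rose, namely *SMAD7*, *TGFBI* and *ELN*, and 3 fell, *LTBP2* and *FN1* among them, beside 2.95% and 2.76% of all genes and with a median log2 fold change of 0.05. *SMAD7*, a feedback inhibitor, rose from 41.0 ± 3.24 to 54.0 ± 2.28 CPM (log2 fold change 0.40, edgeR adjusted p = 0.000336). *LTBP2*, a latent TGF-β binding protein of the matrix, fell from 371 ± 14.8 to 323 ± 5.25 CPM (log2 fold change -0.20, edgeR adjusted p = 0.00260). *ELN* lost its call in 11 of 14 alternatives, and *FN1* lost its call with DESeq2, without control replicate 3 and without 4-OHT replicate 2. *FN1*, like *COL6A3*, was low in control replicate 2, at 5651 CPM against 7503 and 7274 CPM in the other control libraries.

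**Figure D4:**
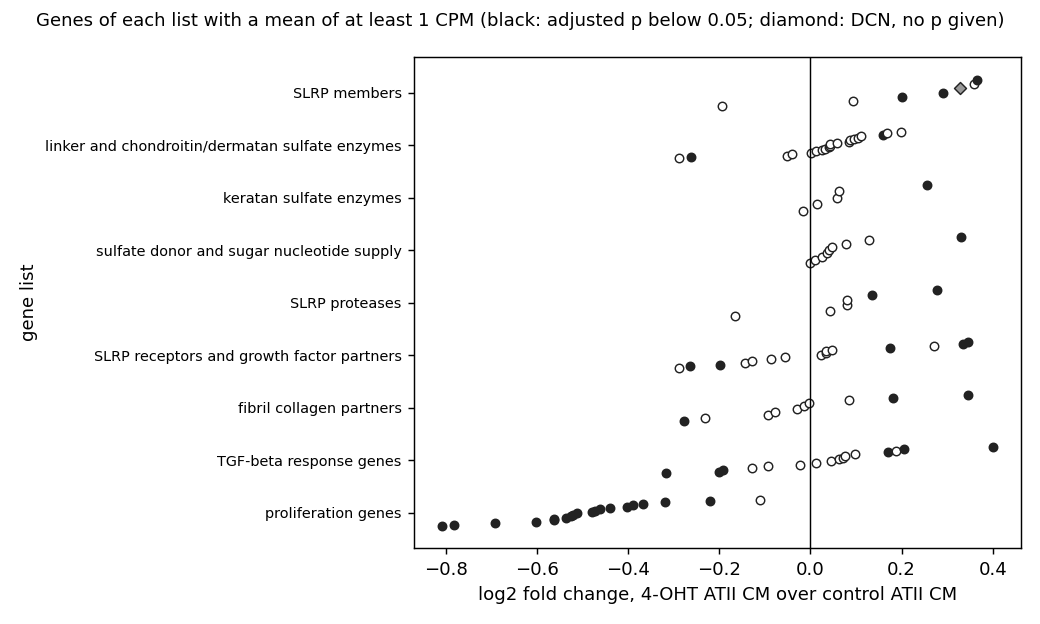
Log2 fold change of 4-OHT ATII CM over control ATII CM (horizontal axis) for genes with a mean of at least 1 CPM in 9 gene lists (vertical axis). Black points passed an adjusted p of 0.05 in edgeR, open points did not, and the grey diamond is *DCN*, for which no p value is given; the linker and chondroitin or dermatan sulfate enzymes lie between -0.29 and 0.20 and the proliferation list between -0.81 and -0.11.

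Proliferation genes moved in the same comparison. Of 20 such genes, 19 fell and none rose, beside 2.76% and 2.95% of all genes, and *PCNA* alone did not pass the test. Their summed level was 705 to 747 CPM in control libraries and 507 to 548 CPM in 4-OHT libraries, without overlap, and the median log2 fold change was -0.50. *MKI67*, the standard marker of cycling cells, fell from 41.5 ± 4.60 to 24.2 ± 0.896 CPM (log2 fold change -0.78, edgeR adjusted p = 1.01e-05). Its part in the SLRP result was not tested.

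Further lists held markers of other cell types. In the endothelial list, *PECAM1* and *CDH5* had 0 counts, while *TEK*, the angiopoietin receptor, rose from 128 ± 9.06 to 167 ± 4.57 CPM (edgeR adjusted p = 0.000162). The other measured genes of that list, *VWF* with 25 counts in each group and *CLDN5* with 6 and 5 counts, were not called, and their log2 fold changes were below 0. Of the smooth muscle list, *MYH11* had 2 counts, *LMOD1* rose and *SMTN* fell. Of the immune list only *CD14* was measured, at 0.766 ± 0.178 and 1.48 ± 0.409 CPM (SD, n = 3 each), and it was not called.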

How the data were processed

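Total RNA of MRC5 cells was sequenced as 6 libraries, paired-end after NEBNext Ultra library preparation. After trimming (Trim Galore) and alignment to GRCh38 (HISAT2 2.1.0), the authors deposited raw counts per gene from featureCounts 1.6.5. The annotation release, the use of strand and the handling of multimapping reads are not given in the sources used here. Of 58721 lines, 45 repeated identifiers were summed. Symbols came from GENCODE 44. Genes with at least 10 summed counts were normalized by TMM and tested in edgeR 4.0.16 (R 4.3.3) by quasi-likelihood F tests on group, without covariates, and Benjamini-Hochberg adjustment over 19072 genes. DESeq2 1.42.0 and limma 3.58.1 were run as alternatives, and the edgeR, DESeq2 and limma fits were tested on simulated data. Replicate libraries differed by more than counting noise (chi-square per degree of freedom 2.12 to 6.03), and the square root of the common dispersion was 4.36%. Named genes were all members, other family genes, called and most abundant genes of each list, genes overlapping a member and the 5 genes most like *DCN*. Markers and further genes at the limits of a list were named after their values were seen. The result of 1 listed gene is not reported here. The members and lists were chosen with earlier results of these data known.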

Additional observations from a re-analysis of the deposited data

How the results depend on the processing

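In 14 alternatives, *DCN* and *LUM* stayed higher, with log2 fold changes of 0.31 to 0.35 and 0.27 to 0.30. *LUM* had adjusted p values up to 0.000962. The alternatives refit the libraries by which *DCN* was picked, so the range for *DCN* is a description only. The number of members called higher beside *DCN* was 3 under each alternative except without 4-OHT replicate 2, where *FMOD* and *PODN* were lost and it was 1, so that leaving out 1 library each gave 1 to 3. None was called lower. *BGN*, *ECM2*, *ASPN* and *PRELP* were called in no alternative that gave them an adjusted p value, which DESeq2 did not for *ASPN* and *PRELP*. *BGN* had adjusted p values of 0.0618 to 0.406. *PRELP* changed direction without 4-OHT replicate 3, to 0.021 (adjusted p = 0.985), and with 1 library left out ranged from -0.39 to 0.021. With the replicate number as a block (the replicate block fit) the count of members beside *DCN* was again 3, while calls over all genes went from 1090 to 985. Same-numbered libraries correlated at 0.0631, 0.0256 and 0.0393 in their deviations over 13051 genes, all under 0.1, though each library correlated best with its own number, a hint from the data and not the design. Calls over all genes were 954 with DESeq2, 1132 with limma-voom, 1601 with no count filter, and 533 (without 4-OHT replicate 2) to 1530 (without control replicate 2) with 1 library left out. Thinning to the smallest library and canonical lengths were chosen after seeing the data, and thinning gave 948 calls and the same 3 members. Depth limits *OGN*, *OMD*, *ASPN* and *PRELP*.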

Other observations

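The 5 genes whose log2 CPM followed that of *DCN* most closely over the 6 libraries, among 9201 genes with a mean of at least 10 CPM, were *TP53I11* (Pearson r = 0.998), *TMEM176B* (0.998), *SAMD11* (0.996), *ANGPTL2* (0.996) and *S1PR1* (0.996). All points come from the same 6 libraries and the likeness follows the difference between the groups, so it is a description. *ANGPTL2*, which encodes a secreted angiopoietin-like protein, had 255 ± 2.06 CPM in the control libraries against 296 ± 5.28 CPM in the 4-OHT libraries (SD, n = 3 each). *S1PR1*, a receptor for sphingosine 1-phosphate, had 41.6 ± 0.316 and 60.6 ± 2.20 CPM.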
